A study of Homo sapiens with 2 samples.

Results

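The 10 S100 genes described here are S100A2, S100A4, S100A6, S100A8, S100A9, S100A10, S100A11, S100A14, S100A16 and S100P. They were found by symbol among the 36601 genes of the joint RNA and ATAC matrix, and all 10 matched. Of the 187920 peaks of open chromatin in that matrix, 24 lay within 2 kb of the span of their annotated starts. All 10 genes had at least 20 unique molecular identifiers (UMIs, counts of single RNA molecules), and 23 of the 24 peaks had at least 100 counts.

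S100 proteins are small calcium-binding proteins of the EF-hand class that work mostly as dimers. Calcium changes their shape, so that they bind partners such as annexins, myosin or other cytoskeletal proteins, and several are also released and act on cell-surface receptors. All members except S100P lie in a gene cluster on chromosome 1q21, next to genes of skin barrier formation. In lung adenocarcinoma, a cancer of gland-forming airway and alveolar epithelium, several members are commonly studied as markers of invasion or inflammation.

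The data come from a benchmark of methods for single-cell chromatin analysis, in which RNA and open chromatin were read from the same droplets of a single capture. That capture held 5 established, untreated human lines, A549, H838, H1975, H2228 and HCC827, each grown as 1 culture, frozen and pooled in equal parts. The capture was divided, and only the larger fraction, 80% of it, is analysed here. There was 1 RNA and 1 ATAC library, so no value below has a replicate, and its 95% interval covers counting error only.

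The files do not say which barcode is which line, so each barcode was called to 1 of 5 groups from panels of marker genes that hold no S100 gene. In 2 groups markers held out of the panels bore out a name. These were the A549-like group (7 of 7 A549 markers highest there) and the HCC827-like group (5 of 6 HCC827 markers). The other 3 groups are named after a gene high in them, as the LCN2 line, the SLC30A8 line and the DHRS2 line. SLC30A8 and DHRS2 were in the panels, and LCN2 was held out. All 5 H2228 markers were highest in the LCN2 line, but ALK, the fusion gene of H2228, was at 15.97 CPM (counts scaled to a total of 1000000 per group) there and 15.1 in the HCC827-like group, with overlapping intervals. Markers of H1975 and H838 did not settle on 1 group.

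The 2340 called barcodes held 36130638 UMIs and 84336344 peak counts, and 98.3% of them fell in the ATAC cluster of the same group. All 3298 barcodes carried counts from both libraries. The groups differed in RNA quality. Median UMIs per barcode were 4686 in the A549-like group, 13430 in the LCN2 line, 7459 in the SLC30A8 line, 12151 in the HCC827-like group and 17755 in the DHRS2 line. Median mitochondrial shares of UMIs were 0.422%, 8.93%, 0.430%, 13.9% and 12.1% in the same order. MALAT1, a nuclear RNA, was lowest in the A549-like group at 28596 CPM and highest in the HCC827-like group at 45315. The part of these differences in the results was not tested, and values within narrower mitochondrial ranges are given below. In sums over barcodes, fewer expressing cells and less RNA per cell cannot be told apart.

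The DNA before each start is shown for members that differ most in how widely they were open and transcribed. Promoter windows of 300 bases, 250 before and 50 after a start, came from RefSeq (GRCh38.p14), and all 10 members matched at least 1 of them, 14 in all. S100A6 stands for members expressed in every line, with a start rich in CpG dinucleotides. S100A9, S100A8, S100P and S100A14 stand for members with a start that was open in some lines and hardly in others. Capitals mark the TATA box letters TATAAA and the SP/KLF letters GGGCGG or their reverse complement. The sequences lie on the minus strand at chr1:153535942-153536241 (S100A6), the plus strand at chr1:153357604-153357903 (S100A9), the minus strand at chr1:153391024-153391323 (S100A8), the plus strand at chr4:6693628-6693927 (S100P) and the minus strand at chr1:153616276-153616575 (S100A14).
S100A6: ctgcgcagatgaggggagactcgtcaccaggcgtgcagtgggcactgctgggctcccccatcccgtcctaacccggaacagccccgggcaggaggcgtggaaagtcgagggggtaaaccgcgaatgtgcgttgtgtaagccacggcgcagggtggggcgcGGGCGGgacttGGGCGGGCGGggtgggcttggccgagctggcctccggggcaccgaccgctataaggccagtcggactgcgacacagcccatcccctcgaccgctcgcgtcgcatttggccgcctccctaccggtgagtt
S100A9: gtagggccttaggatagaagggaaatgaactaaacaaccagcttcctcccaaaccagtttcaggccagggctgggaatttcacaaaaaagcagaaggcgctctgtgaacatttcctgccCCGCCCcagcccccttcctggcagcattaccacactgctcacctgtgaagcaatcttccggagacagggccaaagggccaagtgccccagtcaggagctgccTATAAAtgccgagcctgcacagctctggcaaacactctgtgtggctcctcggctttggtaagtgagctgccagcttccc
S100A8: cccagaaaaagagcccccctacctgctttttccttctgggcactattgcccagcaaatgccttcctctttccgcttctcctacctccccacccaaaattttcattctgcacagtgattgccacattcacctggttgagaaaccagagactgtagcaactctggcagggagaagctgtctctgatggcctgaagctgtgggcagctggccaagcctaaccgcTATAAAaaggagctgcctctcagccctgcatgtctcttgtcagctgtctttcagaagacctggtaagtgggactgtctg
S100P: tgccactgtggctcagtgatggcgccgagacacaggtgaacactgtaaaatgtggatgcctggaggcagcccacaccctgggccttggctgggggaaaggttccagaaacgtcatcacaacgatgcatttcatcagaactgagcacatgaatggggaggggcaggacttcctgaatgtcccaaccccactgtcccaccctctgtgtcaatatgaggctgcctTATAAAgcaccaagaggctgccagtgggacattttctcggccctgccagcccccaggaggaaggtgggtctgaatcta
S100A14: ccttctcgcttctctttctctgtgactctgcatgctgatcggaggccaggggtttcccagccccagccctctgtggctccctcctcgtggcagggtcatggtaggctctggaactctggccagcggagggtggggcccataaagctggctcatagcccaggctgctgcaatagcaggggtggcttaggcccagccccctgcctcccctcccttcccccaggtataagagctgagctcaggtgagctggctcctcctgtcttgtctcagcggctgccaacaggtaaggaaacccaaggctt

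The S100A6 window held 31 CpG dinucleotides, against 5 each in the S100A9, S100P and S100A14 windows and 2 in that of S100A8. The median of all 35116 RefSeq windows was 14. Windows of the annexin partners S100A10 and S100A11 were likewise CpG-rich, with 32 and 22. TATAAA began at position -29 of S100A9, -29 of S100A8 and -28 of S100P, counted from the start at 0. S100A4 held it at position -31, so 4 of 10 members had the letters. By window, 5 of 14 held them, beside 11.5% of all windows, and overlapping windows of S100A8 share the same letters. GGGCGG occurred in windows of 5 members, S100A6, S100A9, S100A10, S100A11 and S100A16. By window, 5 of 14 held it, beside 45.0% of all windows. Other motifs searched on both strands were AP-1 (TGANTCA, 7.71% of windows), C/EBP (TTGCNNAA, 10.5%) and TEAD (GGAATG, 14.03%). AP-1 letters were found before 1 start of S100A2, C/EBP letters before S100A11, and TEAD letters in both windows of S100A16. SP/KLF matches in S100A6 at positions -79 and -75 overlap each other. A match is a description of letters and not of binding.

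S100A9 RNA, which encodes a subunit of calprotectin, a protein pair best known from neutrophils and from inflamed epithelium, was at 516 CPM (502 to 531) in the LCN2 line. It was at 86.3 CPM (81.0 to 91.9) in the DHRS2 line, 58.5 (51.7 to 65.9) in the A549-like group, 45.8 (40.1 to 51.9) in the SLC30A8 line and 28.9 (24.7 to 33.6) in the HCC827-like group. The LCN2 line stood above all others with no overlap of intervals, at 9.74-fold the median of the other 4 (log2 ratio 3.28 on the CPM + 1 scale). Only the A549-like group and the SLC30A8 line overlapped as neighbours in that order.

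Free RNA in a suspension can give UMIs in droplets of every line, so S100A9 is set beside 4 other RNAs abundant in the LCN2 line. These were LCN2 and SAA1, both acute-phase genes, and CD74 and HLA-DRB1, both of MHC class II antigen presentation. S100A9 elsewhere was at 11.3% (A549-like), 8.86% (SLC30A8 line), 5.60% (HCC827-like) and 16.7% (DHRS2 line) of its level in the LCN2 line. In the same order LCN2 was at 5.02%, 2.86%, 5.86% and 14.8% of its own and SAA1 at 8.42%, 8.51%, 6.99% and 17.1%. CD74 was at 3.07%, 1.93%, 2.41% and 17.8%, and HLA-DRB1, a panel gene, at 3.39%, 2.41%, 2.26% and 14.5%. In the A549-like group S100A9 was above all 4. In the SLC30A8 line it was close to SAA1 (8.86% and 8.51%) and above LCN2, CD74 and HLA-DRB1. It was above CD74 and HLA-DRB1 only in the HCC827-like group, and within the range of the 4 in the DHRS2 line. Low expression and free RNA were not told apart by a test for S100A9 outside the LCN2 line. With a stricter call of barcodes that kept 250 in the DHRS2 line, S100A9 there was at 13% of its level in the LCN2 line and LCN2 at 9.65%.

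S100A8, the other calprotectin subunit, was almost silent. It had 15 UMIs in the LCN2 line, 6 in the SLC30A8 line, 6 in the DHRS2 line, 2 in the A549-like group and 0 in the HCC827-like group, where 3 UMIs would be 0.510 CPM. Its highest level was 1.68 CPM (0.938 to 2.76), and every pair of neighbours in its order overlapped. The LCN2 line thus carried 4624 UMIs of S100A9 beside 15 of S100A8. Of 12 myeloid marker genes, 4 were measured at 20 or more UMIs in all groups summed, and MNDA and AIF1 were at 0 in every line. PTPRC, which encodes the leukocyte antigen CD45, was at 6.03 CPM (54 UMIs) in the LCN2 line, a log2 ratio of 2.37, and at 0.191 to 1.40 CPM elsewhere. Its part in the S100A9 level was not tested. The 12 genes summed to 14.4 CPM in the LCN2 line, against 9.93 in the A549-like group, 4.21 in the SLC30A8 line, 6.64 in the HCC827-like group and 19.2 in the DHRS2 line.

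**Figure D1:**
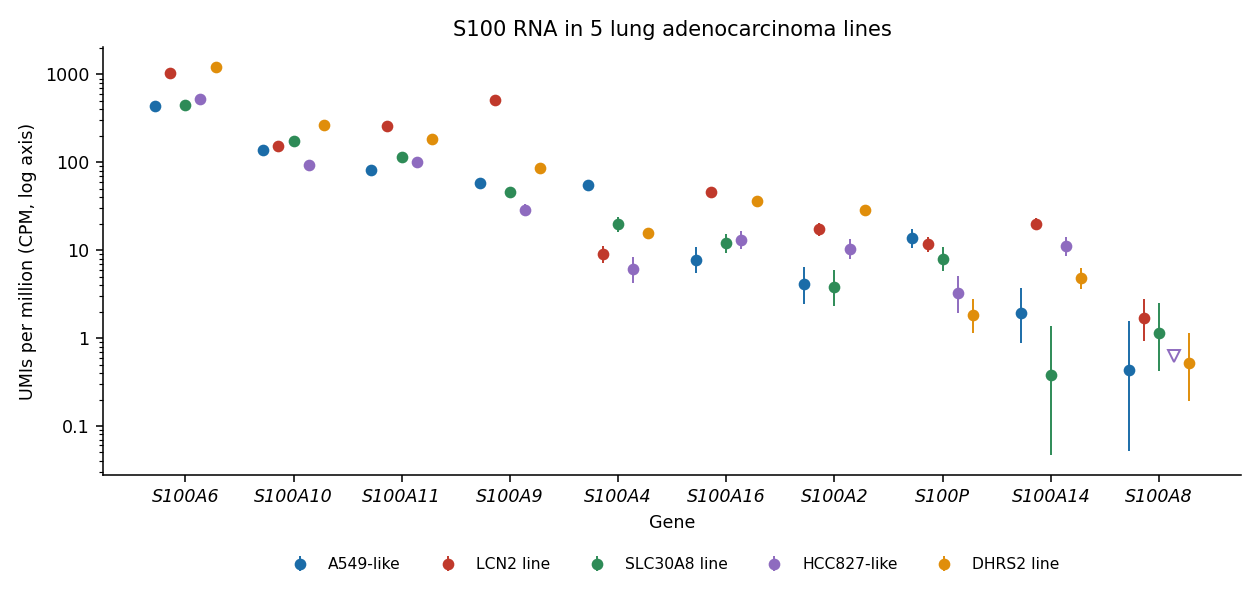
RNA of the 10 S100 genes in CPM on a log axis, genes ordered by their median over lines, 1 point per line with its exact 95% Poisson interval (counting error only, often smaller than the point); the open triangle is the upper bound for a line with 0 UMIs. S100A6 is at 434 CPM or more in every line, S100A9 reaches 516 CPM in the LCN2 line, and S100A8 stays below 2 CPM in all 5.

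S100A6, calcyclin, which binds annexins and the ubiquitin-linked protein CACYBP, was the most abundant member in all 5 lines. Its level was 1203 CPM (1183 to 1223) in the DHRS2 line, 1039 (1018 to 1060) in the LCN2 line, 531 (513 to 550) in the HCC827-like group, 451 (433 to 470) in the SLC30A8 line and 434 (416 to 454) in the A549-like group. The DHRS2 and LCN2 lines were high, at 2.44-fold and 2.11-fold the median of the others, and the SLC30A8 line and A549-like group overlapped. S100A6 made up 50.1% (LCN2 line) to 66.4% (HCC827-like) of all UMIs of the 10 genes. Together the 10 genes reached 2074 CPM in the LCN2 line, 1830 in the DHRS2 line, 832 in the SLC30A8 line, 801 in the HCC827-like group and 796 in the A549-like group. S100A9 made up 24.9% of that sum in the LCN2 line and 3.61% to 7.34% in the others.

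S100A10, which forms a complex with annexin A2 at the plasma membrane, varied less. It was at 270 CPM (260 to 279) in the DHRS2 line, 176 (164 to 187) in the SLC30A8 line, 152 (144 to 160) in the LCN2 line, 139 (128 to 150) in the A549-like group and 94.3 (86.6 to 102) in the HCC827-like group. No line reached a 2-fold difference from the median of the others, and the DHRS2 line came nearest at 1.85-fold. S100A11, a partner of annexin A1, was highest in the LCN2 line at 261 CPM (251 to 272), followed by the DHRS2 line at 184 (176 to 192). It was at 114 CPM (105 to 123) in the SLC30A8 line, 102 (94.1 to 111) in the HCC827-like group and 82.2 (74.2 to 90.9) in the A549-like group. The LCN2 line was called higher at 2.41-fold, and the SLC30A8 line and HCC827-like group overlapped.

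S100A4, which binds non-muscle myosin and is known from work on metastasis, had another order, with the A549-like group at its top. It was at 54.6 CPM (48.1 to 61.8) in the A549-like group, 19.7 (16.1 to 23.9) in the SLC30A8 line, 15.6 (13.4 to 18.0) in the DHRS2 line, 9.05 (7.18 to 11.2) in the LCN2 line and 6.13 (4.29 to 8.48) in the HCC827-like group. The A549-like group was called higher at 4.18-fold, and the HCC827-like group lower. SLC30A8 and DHRS2 lines overlapped, as did the LCN2 line and HCC827-like group. The row of S100A4 lies beside S100A3, and a single peak covers starts of both. Whether RNA counting used strand is not given in the sources used here, so overlapping and antisense transcripts cannot be told apart.

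S100A2, a member known from basal and squamous epithelium and as a target of p53-family factors, was at 28.5 CPM (25.5 to 31.8) in the DHRS2 line and 17.3 (14.7 to 20.3) in the LCN2 line. It was at 10.4 CPM (7.94 to 13.3) in the HCC827-like group, 4.10 (2.47 to 6.40) in the A549-like group and 3.83 (2.34 to 5.91) in the SLC30A8 line. The DHRS2 line was called higher at 3.58-fold and the LCN2 line at 2.22-fold, while the A549-like group and SLC30A8 line were called lower and overlapped. With the stricter barcode call S100A2 was at 12.9 CPM in the LCN2 line and 33.9 in the DHRS2 line, and the call in the LCN2 line ended.

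S100A14, an epithelial member often lost or gained in carcinomas, differed widely between lines. It was at 20.1 CPM (17.3 to 23.3) in the LCN2 line, 11.2 (8.69 to 14.3) in the HCC827-like group, 4.81 (3.62 to 6.26) in the DHRS2 line, 1.94 (0.888 to 3.69) in the A549-like group and 0.383 (0.0464 to 1.38) in the SLC30A8 line. The LCN2 line (4.82-fold) and HCC827-like group (2.80-fold) were called higher and the A549-like group and SLC30A8 line lower, the last on 2 UMIs. S100A16, its close neighbour in the cluster, had another order. It was at 45.8 CPM (41.5 to 50.4) in the LCN2 line, 36.2 (32.8 to 39.8) in the DHRS2 line, 13.1 (10.3 to 16.4) in the HCC827-like group, 12.1 (9.27 to 15.4) in the SLC30A8 line and 7.77 (5.44 to 10.8) in the A549-like group. The LCN2 line (3.45-fold) and DHRS2 line (2.74-fold) were high, and the 3 lower groups overlapped from neighbour to neighbour.

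S100P, the member on chromosome 4, which is known for binding the receptor RAGE and ezrin, was at 13.8 CPM (10.6 to 17.6) in the A549-like group and 11.7 (9.59 to 14.2) in the LCN2 line. It was at 8.04 CPM (5.80 to 10.9) in the SLC30A8 line, 3.23 (1.95 to 5.05) in the HCC827-like group and 1.84 (1.14 to 2.81) in the DHRS2 line. The first 3 overlapped from neighbour to neighbour, as did the last 2. The A549-like group was called higher at 2.23-fold, and the HCC827-like group and DHRS2 line lower. S100P was thus the only member lowest in the DHRS2 line, where S100A2, S100A6 and S100A10 were at their highest.

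A line was called higher or lower for a gene at a 2-fold ratio of CPM + 1 to the median of the other 4 lines. Of the 10 members, 6 in the LCN2 line were higher and 0 lower, where 11.1% of all 20230 measured genes were higher and 10.7% lower. In the DHRS2 line 3 were higher and 1 lower, beside 9.04% and 3.63% of all genes. In the A549-like group 2 were higher and 3 lower, beside 14.6% and 12.3%. The HCC827-like group had 1 higher and 3 lower, beside 8.60% and 12%, and the SLC30A8 line 0 higher and 2 lower, beside 15.2% and 15.7%, which is near the background. Median log2 ratios of the members were 1.12 in the LCN2 line and 0.74 in the DHRS2 line, where those of all genes were -0.08 and 0.01. They were -0.60 (A549-like), -0.49 (SLC30A8 line) and -0.81 (HCC827-like), beside 0.09, 0.06 and -0.19 for all genes. In the LCN2 line the count of higher members was 2 under 2% mitochondrial UMIs and 3 with lines taken from RNA clusters. Since S100 genes share a region and these groups were each 1 culture, no test was made of these counts.

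The mitochondrial share of UMIs moved with the levels of several members within a line. Barcodes under 2% mitochondrial UMIs made up 87.1% of the A549-like group and 65.6% of the SLC30A8 line, but 8.17% of the LCN2 line (34 barcodes). S100A6 in the LCN2 line was at 519 CPM (428 to 622) under 2% and 1052 (1031 to 1074) at 2% to 20%. In the DHRS2 line it was at 780 CPM (715 to 849) and 1230 (1209 to 1251). S100A11 in the LCN2 line was at 149 CPM (102 to 209) and 264 (253 to 275), while in the DHRS2 line it was at 194 and 183, with overlapping intervals. S100A6 was higher at 2% to 20% in all 5 lines without overlap of intervals. Over all genes the median log2 difference between the 2 ranges lay between -0.25 and 0.02, and over the 10 members between 0.06 and 0.87. Housekeeping genes moved as well, with GAPDH at 1.76-fold to 2.45-fold and the actin gene ACTB at 2.00-fold to 3.39-fold at 2% to 20% in the 5 lines. The nuclear RNA MALAT1 was at 0.502-fold to 0.893-fold. The part of RNA quality in the levels of the members was not tested.

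S100A9 moved in opposite directions. It was at 248 CPM (187 to 323) under 2% in the LCN2 line and 523 (508 to 539) at 2% to 20%. In the HCC827-like group it was at 103 (72.3 to 143) and 24.2 (20.3 to 28.7), in the A549-like group at 71.4 (62.4 to 81.4) and 31.7 (23.4 to 42.1), and in the SLC30A8 line at 63.0 (53.1 to 74.1) and 32.4 (26.2 to 39.6). Intervals did not overlap in any of these 4. Other RNAs of the LCN2 line went in part the same way. In the A549-like group SAA1 went from 108 to 53.6 CPM, LCN2 from 525 to 603 and CD74 from 77.2 to 74.1. In the HCC827-like group SAA1 went from 115 to 72.5 CPM, LCN2 from 774 to 634 and CD74 from 97.4 to 57.3. In the SLC30A8 line SAA1 went from 104 to 81.7 CPM, LCN2 from 435 to 219 and CD74 from 62.5 to 36.4. S100A9 was at 0.44-fold, 0.23-fold and 0.51-fold in these 3 groups, where SAA1 was at 0.49-fold, 0.63-fold and 0.79-fold. The DHRS2 line went the other way for all 4 RNAs. There S100A9 went from 61.2 CPM (44.1 to 82.8) to 87.9 (82.4 to 93.7), with overlapping intervals. SAA1 went from 108 to 188 CPM there, LCN2 from 427 to 1693 and CD74 from 90.4 to 464. The part of free RNA or mixed barcodes in this was not tested. The LCN2 line was the highest in both ranges. The line next to it was the HCC827-like group under 2% and the DHRS2 line, at 87.9 CPM, at 2% to 20%.

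S100A4 in the A549-like group was at 39.7 CPM (33.0 to 47.4) under 2% and 85.3 (71.2 to 101) at 2% to 20%, and it was the highest of the 5 lines in both ranges. S100A16 hardly moved in the LCN2 line, at 40.6 CPM (18.6 to 77.0) and 45.9 (41.5 to 50.6). S100A14 gave 66 UMIs at 2% to 20% and 0 under 2% in the HCC827-like group, where 348945 UMIs were read under 2%. Under 2%, each of the 5 lines had at most 1 UMI of S100A14, so its order was not detectable at that depth. Under 2%, the calls of S100A6 and S100A11 in the LCN2 line and of S100A6 and S100A16 in the DHRS2 line ended. At 2% to 20% the higher call of S100P and the lower call of S100A14 in the A549-like group ended.

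**Figure D2:**
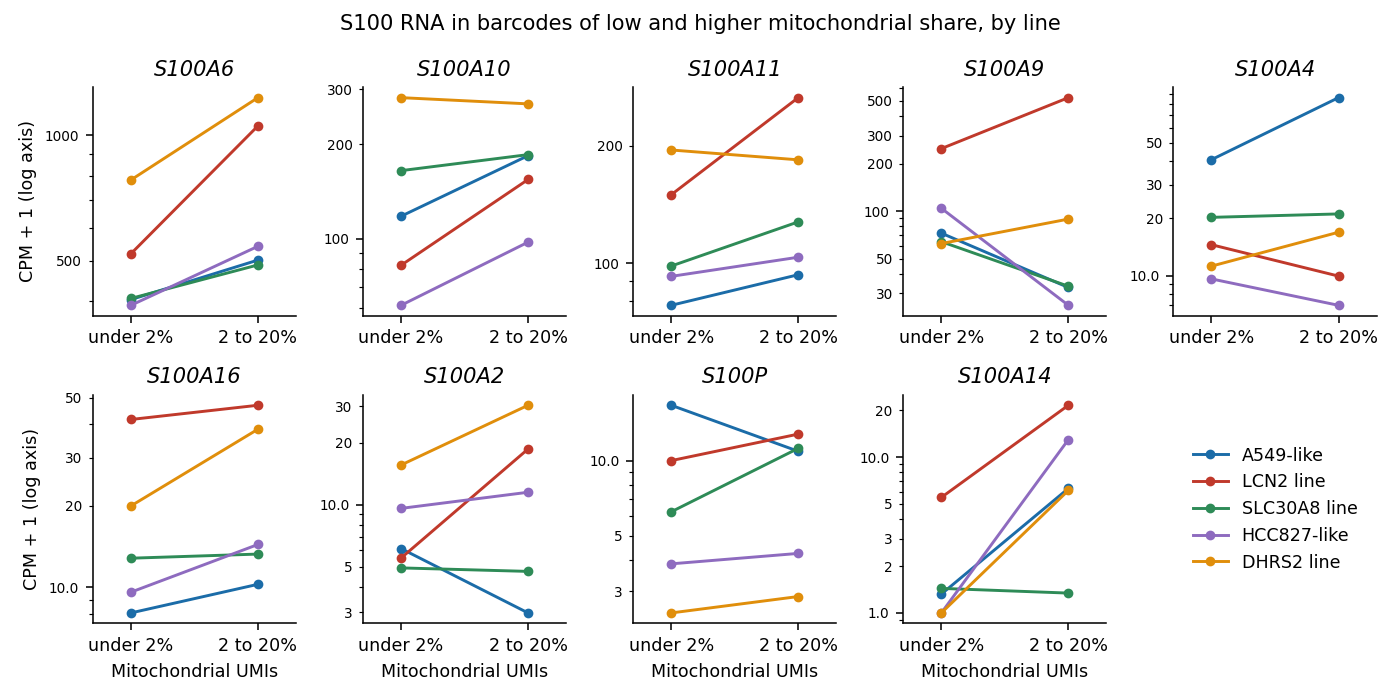
RNA of 9 S100 genes (S100A8 left out, 29 UMIs in all) as CPM + 1 on a log axis, in barcodes with under 2% and with 2% to 20% mitochondrial UMIs, 1 line per group with no error bars. S100A6 is higher at 2% to 20% in all 5 groups, whereas S100A9 is higher there in the LCN2 and DHRS2 lines and lower in the other 3.

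Per barcode, S100A9 was unevenly spread within the LCN2 line. After thinning each barcode to 2000 UMIs, S100A9 was seen in 48.2% of its 413 barcodes (43.3% to 53.1%), 14.3% in the A549-like group, 12.3% in the DHRS2 line, 10.3% in the SLC30A8 line and 6.74% in the HCC827-like group. Without thinning, at the unequal depths above, the shares were 83.7%, 29.7%, 50.2%, 36.7% and 32.9%. The share in the HCC827-like group, the lowest of the 5, is the comparison for the others. Of the LCN2 line barcodes, 6.30% had 5 or more thinned UMIs of S100A9, where none of the other 4 lines had a barcode with more than 3. The highest-ranking 41 barcodes held 51.1% of its S100A9 UMIs, against 28.3% for S100A6 ranked in the same way. The variance over the mean was 3.72 for S100A9 and 1.78 for S100A6, and a value of 1 would be pure counting noise.

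S100A6 was seen in 84.3% of thinned barcodes of the DHRS2 line, 82.3% of the LCN2 line, 61.9% of the HCC827-like group, 59.2% of the A549-like group and 57.7% of the SLC30A8 line. S100A10 ranged from 16.3% (HCC827-like) to 40.3% (DHRS2 line) and S100A11 from 15.5% (A549-like) to 38.7% (LCN2 line). S100A4 was seen in 9.04% of the A549-like group and 0.777% of the HCC827-like group. S100A2, S100A14 and S100P stayed under 5% in every line, and S100A16 reached 9.93% in the LCN2 line. Within the LCN2 line, thinned S100A9 UMIs correlated with those of S100A6 at r = 0.41 and of LCN2 at r = 0.40 (413 barcodes of 1 library, given as a description). Among the 381 barcodes at 2% to 20% mitochondrial UMIs, r was 0.41 and 0.40. Over all 413 barcodes r was lower with the other genes paired with S100A9. It was 0.19 with SAA1, 0.11 with CD74, 0.09 with the C/EBP factor gene CEBPD, 0.07 with S100A11 and 0.06 with S100A10. With GAPDH, the glycolytic housekeeping gene, r was 0.05. These values move with the random thinning. Another thinning gave 0.38 for S100A9 with S100A6, 0.09 with S100A11 and -0.02 with S100A10, so the order of the small values is not stable.

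**Figure D3:**
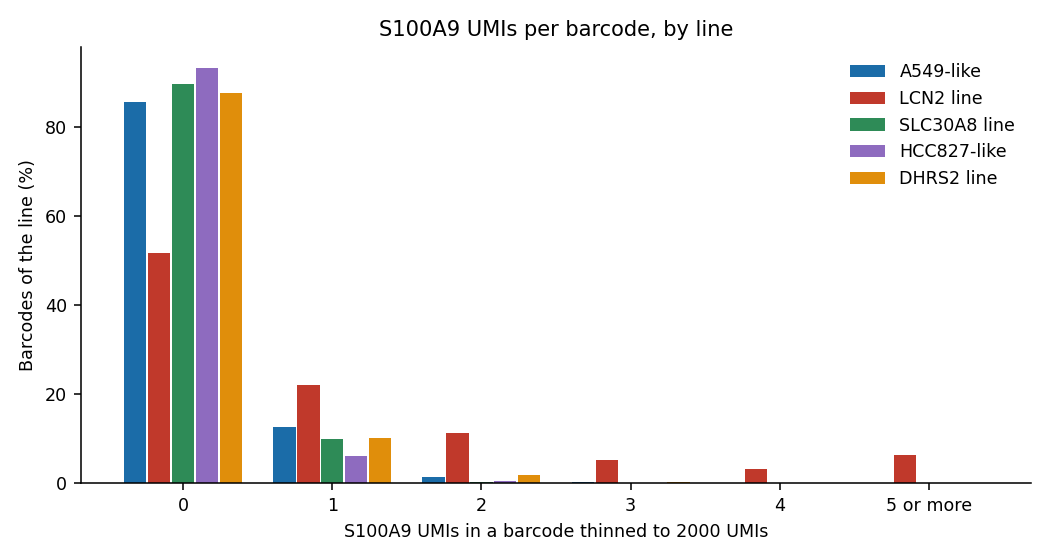
Share of barcodes (%) in each line by their number of S100A9 UMIs after thinning every barcode to 2000 UMIs, bars starting at 0 and without error bars. In the LCN2 line 51.8% have none and 6.30% have 5 or more, while the other 4 lines have at least 85.7% with none.

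A peak counted as over a start where it overlapped the span from the first to the last annotated start of a gene. Peaks lying between starts were thus counted too, and the peaks of a gene were summed. Summed in this way, open chromatin over the starts fell into 2 kinds. Over the starts of S100A2, S100A4, S100A10, S100A11 and S100A16 the highest line was 1.23-fold to 1.73-fold the lowest, and over the start of S100A6 2.22-fold. Over the starts of S100A9, S100A8, S100A14 and S100P the ratios were 8.49-fold, 49.9-fold, 14.1-fold and 7.26-fold. Sums of the first kind were at 28.2 CPM of peak counts or more in every line, and those of the second kind at 18.9 or less. Single peaks could lie outside these ranges. The S100A2 peak over a RefSeq window (chr1:153565309-153566061) was at 10.4 CPM (A549-like) to 23.4 CPM (HCC827-like). Its other peak in the span (chr1:153566235-153567074), over no RefSeq window, was at 52.3 CPM (LCN2 line) to 63.7 CPM (A549-like). Of the 4 members with a selectively open start, 3 carried TATAAA near position -29 and all 4 had 5 or fewer CpG dinucleotides in any window. The S100A4 window with TATAAA lay under no peak, while other starts of S100A4 were open in all lines. S100A2 had few CpG dinucleotides (5 at most) in its RefSeq windows. Its peak over 1 of them was at 10.4 CPM or more in every line. CpG content was not counted under its more open peak, so S100A2 does not settle whether CpG content divides the members.

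The S100A9 start (chr1:153357324-153358210) was at 14.8 CPM (12.7 to 17.3) in the LCN2 line, 11.03 (9.20 to 13.1) in the DHRS2 line, 10.9 (8.26 to 14) in the SLC30A8 line, 4.13 (2.29 to 6.88) in the HCC827-like group and 1.75 (1.04 to 2.75) in the A549-like group. The LCN2, DHRS2 and SLC30A8 lines overlapped, and the A549-like and HCC827-like groups were called lower. In the SLC30A8 line the start was open at 0.47 above the median of the others on the log2 scale, while its RNA was at 8.86% of the level in the LCN2 line. The S100A8 start (chr1:153390658-153391579) was at 18.9 CPM (15.4 to 22.9) in the SLC30A8 line, 6.59 (5.20 to 8.25) in the DHRS2 line, 5.34 (4.07 to 6.89) in the LCN2 line, 1.14 (0.311 to 2.92) in the HCC827-like group and 0.378 (0.103 to 0.968) in the A549-like group. The SLC30A8 line was called higher with a log2 ratio of 2.23, although it held 6 UMIs of S100A8 RNA.

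**Figure D4:**
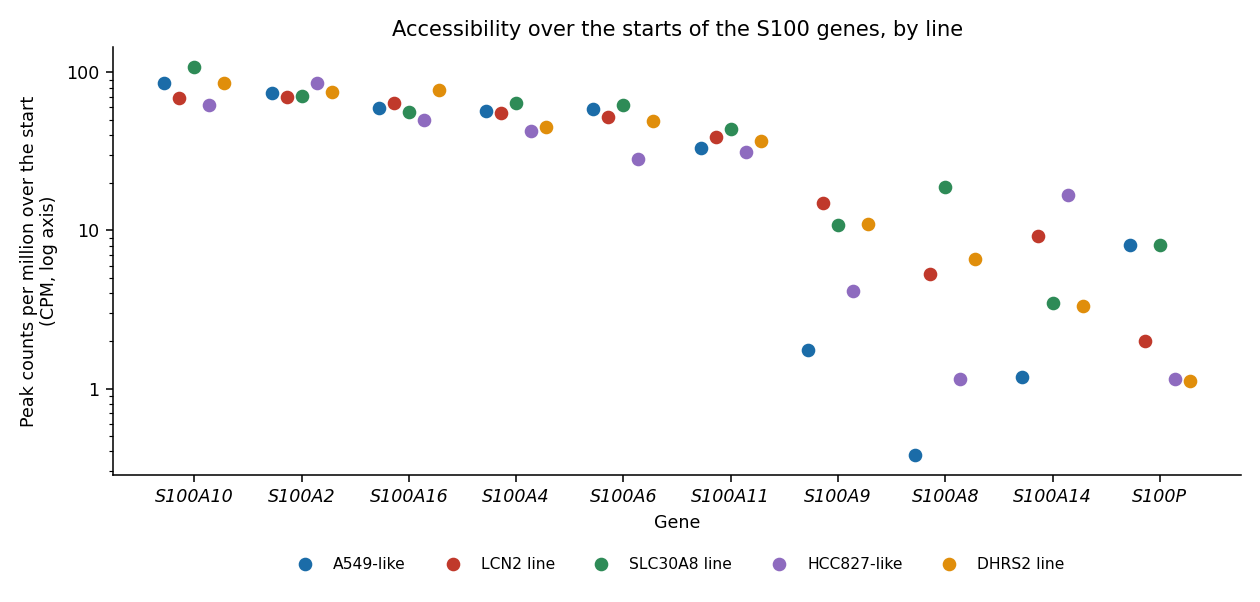
CPM of peak counts over the span of annotated starts of the 10 S100 genes (log axis), summed where a gene has several peaks there, genes ordered by their median, 1 point per line and no error bars. Starts of S100A8, S100A9, S100A14 and S100P spread over 7.26-fold or more between lines and the other 6 over at most 2.22-fold.

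The S100A14 start (chr1:153616054-153616921) was at 16.7 CPM (12.7 to 21.5) in the HCC827-like group, 9.24 (7.53 to 11.2) in the LCN2 line, 3.49 (2.10 to 5.46) in the SLC30A8 line, 3.32 (2.35 to 4.55) in the DHRS2 line and 1.18 (0.622 to 2.04) in the A549-like group. Both lines with the most S100A14 RNA were called higher over its start, in exchanged order. The S100P start (chr4:6693402-6694248) was at 8.13 CPM (6.50 to 10.0) in the A549-like group, 8.09 (5.88 to 10.9) in the SLC30A8 line, 1.99 (1.25 to 3.02) in the LCN2 line, 1.14 (0.311 to 2.92) in the HCC827-like group and 1.12 (0.597 to 1.92) in the DHRS2 line. The A549-like group and SLC30A8 line were called higher, and the HCC827-like group and DHRS2 line lower. In the LCN2 line S100P RNA was near the top of its order while its start was among the 3 low ones. At 2% to 20% mitochondrial UMIs the calls over this start ended in the A549-like group, the HCC827-like group and the DHRS2 line.

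A peak behind the S100P start (chr4:6695510-6696388) was highest in the A549-like group, at 21.7 CPM, against 6.71 to 11.3 in the others. A peak beyond S100A10 (chr1:151994874-151995626) was highest in the DHRS2 line, at 17.9 CPM against 3.14 to 9.66. Over all 23 measured peaks, 2 were higher and 4 lower in the A549-like group, beside 9.35% and 23.5% of the 117221 measured peaks. The LCN2 line had 1 higher and 0 lower (16.3% and 6.59% of all peaks), the SLC30A8 line 3 and 0 (9.89% and 20.6%), the HCC827-like group 1 and 5 (12.4% and 10.9%) and the DHRS2 line 3 and 1 (16.6% and 2.15%). None of these counts is read as particular to the S100 peaks. The other peaks within 500 kb of the members, summed by region, were at 0.754-fold to 1.24-fold of the other lines. Mean log2 ratios of these peaks reached -0.60 in the A549-like group (region of S100A9 to S100A14). They reached 0.57 in the DHRS2 line (region of S100A10 and S100A11). Copy number was not tested.

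RNA and accessibility over the start went the same way in 36 of 50 pairs of gene and line (72.0%). Of the 21 gene and line pairs called for RNA, 17 had a start peak on the same side and 7 had it past 2-fold. The line with the most RNA was also the line with the most open start for 2 of 10 genes, S100A9 and S100P. Over the 50 pairs the log2 ratios had a Pearson r of 0.49, given as a description since lines and libraries are shared. Matching values over all genes with a start peak were not computed, so none of these is read as particular to the S100 genes. S100A4 in the A549-like group had 4.18-fold more RNA at a start that was at a log2 ratio of 0.18. S100A2 in the DHRS2 line was at 3.58-fold with a start at 0.06, S100A16 in the LCN2 line at 3.45-fold with a start at 0.15, and S100A6 in the DHRS2 line at 2.44-fold with a start at -0.16. In these pairs RNA was past 2-fold while the summed start peaks stayed within 2-fold. For S100A2, the single peak over a RefSeq window was at a log2 ratio of 0.48 in the DHRS2 line. That peak was at -0.87 in the A549-like group and -0.61 in the SLC30A8 line, where S100A2 RNA was called lower.

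**Figure D5:**
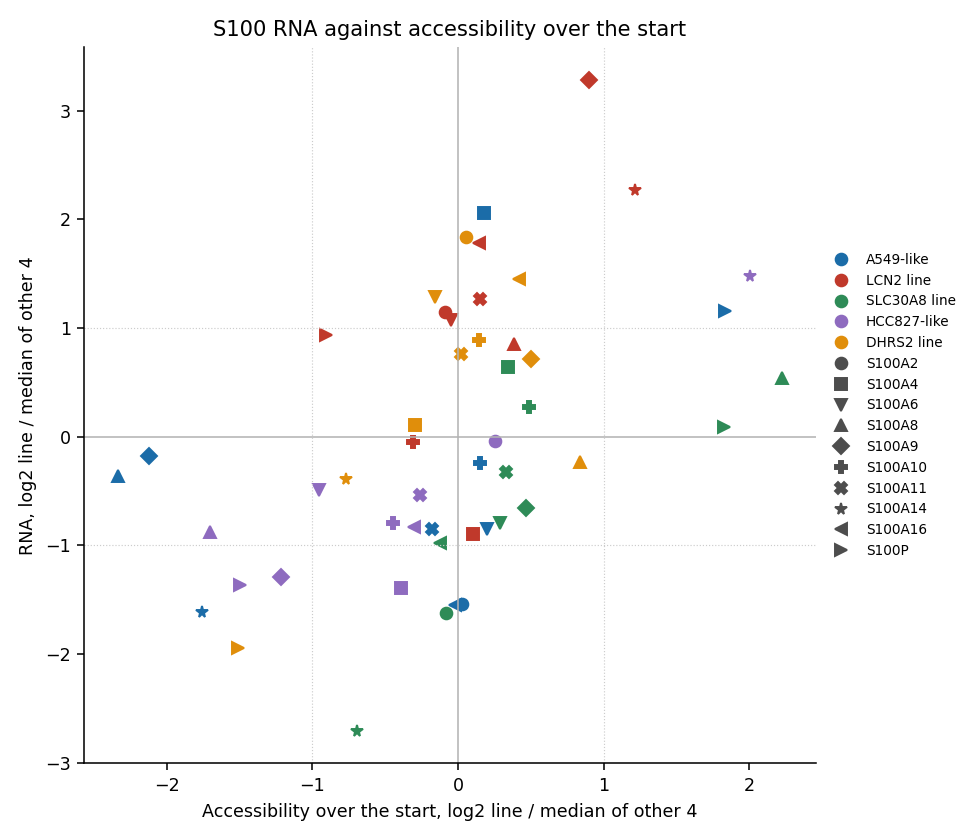
Log2 ratio of a line to the median of the other 4 for RNA (vertical) against accessibility over the start (horizontal), 1 point per gene and line (50 points), colour for the line and shape for the gene, dotted lines at 2-fold. Points of S100A9, S100A14 and S100P spread past 2-fold along both axes, those of S100A8 (29 UMIs) along the horizontal axis alone, and those of the other 6 genes stay within 2-fold on the horizontal axis.

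Among 11 other S100 genes, S100A13 (1102 UMIs) and S100A3 (85 UMIs) were measured. Both were highest in the DHRS2 line, S100A13 at 42.1 CPM and S100A3 at 4.81 CPM, with 1 of the pair called higher there. S100A7, the psoriasin gene, had 1 UMI, S100A12, a myeloid member, had 6, and S100B, a marker of glia and melanocytes, had 0. Of 17 genes for partners and receptors of S100 proteins, 15 were measured. In the LCN2 line 4 were higher and 1 lower (11.1% and 10.7% of all genes), with a median log2 ratio of 0.34 (all genes -0.08). PLAT, the tissue plasminogen activator that binds the S100A10 complex, was at 552 CPM there, 112 in the DHRS2 line and 9.96 to 14.7 in the others, and PLAU, the urokinase gene, at 479 CPM in the LCN2 line and 34.1 in the SLC30A8 line.

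In the DHRS2 line 4 partner genes were higher and 0 lower (9.04% and 3.63% of all genes), among them MYH9, the non-muscle myosin that S100A4 binds, at 379 CPM against 100 to 187 elsewhere. BSG, the receptor basigin that S100A9 can bind, was at 515 CPM there and 369 in the LCN2 line. The A549-like group had 0 higher and 3 lower (14.6% and 12.3%), the HCC827-like group 0 and 2 (8.60% and 12%), and the SLC30A8 line 2 and 4 (15.2% and 15.7%), among them ANXA1, the partner of S100A11, at 94.4 CPM against 388 to 585. ANXA2, the partner of S100A10, was called in no line and lay between 290 and 623 CPM.

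The cluster on 1q21 also holds the epidermal differentiation complex, whose genes build the cornified skin layer. Of 19 of its genes in the files 5 were measured, and 4 of them were higher in the SLC30A8 line (15.2% of all genes). The limit of 20 UMIs is summed over lines, so a gene can be measured only through the line where it is high. FLG2 had 20 UMIs in the SLC30A8 line, 5 in the DHRS2 line and 1 in the A549-like group. FLG had 30, 15 and 1 in the same order. The count is therefore not read as a trait of the SLC30A8 line. Among these were filaggrin (FLG) at 5.74 CPM and hornerin (HRNR) at 7.66 CPM, and the 4 calls rested on 19 to 40 UMIs each. FLG and trichohyalin (TCHH) were also called higher in the DHRS2 line, and HRNR in the A549-like group. SPRR2D, a small proline-rich barrier gene, was at 4.58 CPM (41 UMIs) in the LCN2 line and at most 0.524 elsewhere, so it too was measured through 1 line. Of 21 other neighbours on 1q21, all measured, 1 was higher in the LCN2 line and 1 lower (11.1% and 10.7% of all genes). Their median log2 ratio there was 0.30 (all genes -0.08). In the A549-like group 0 were higher and 6 lower (14.6% and 12.3%), with a median of -0.56 (all genes 0.09). Medians of the neighbours were 0.33 in the DHRS2 line, -0.33 in the HCC827-like group and 0.31 in the SLC30A8 line. Those of all genes were 0.01, -0.19 and 0.06 in the same order. Neighbour medians were on the same side as the medians of the S100 members in 4 of 5 lines, the exception being the SLC30A8 line.

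Of 12 transcription factors of myeloid and squamous cells, 10 were measured. The LCN2 line had 4 higher and 0 lower (11.1% and 10.7% of all genes). Among them were CEBPD, an acute-phase C/EBP factor, at 281 CPM against 63.5 to 98.8 elsewhere, and KLF4, an epithelial barrier factor, at 13.6 CPM. SOX2 was called higher in the HCC827-like group, at 51.2 CPM. CEBPA was called higher in the LCN2 line, at 3.80 CPM (34 UMIs), and in the A549-like group, at 2.59 CPM (12 UMIs). The SLC30A8 line and HCC827-like group had 1 UMI of CEBPA each and the DHRS2 line 5, so it was measured only through the LCN2 line. TP63 was called higher in the A549-like group. TP63, the master factor of basal and squamous epithelium, was at 222 CPM in the A549-like group, 70.4 in the DHRS2 line, 53.7 in the LCN2 line, 25.7 in the HCC827-like group and 0.574 in the SLC30A8 line. KRT5, KRT14 and KRT13, the defining squamous keratins, were at 0 in every line. KRT6A, a keratin of stressed and squamous epithelium, was at 8.49 CPM (76 UMIs) in the LCN2 line, a log2 ratio of 3.13, and at most 0.787 elsewhere. The squamous marker list, TP63 included, summed to 223 CPM in the A549-like group, 79.7 in the DHRS2 line, 75.3 in the LCN2 line, 26.7 in the HCC827-like group and 1.15 in the SLC30A8 line. Of 5 endothelial markers 2 were measured, with sums from 1.73 to 3.76 CPM.

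Among 13079 genes with at least 200 UMIs, the 3 nearest in level pattern over the 5 lines were found for each member by the Euclidean distance of centred log2(CPM + 1). For S100A9 they were FAM3B (distance 0.43), SAA1 (0.52) and ITPKA (0.55). SAA1, the acute-phase gene set beside it above, was also highest in the LCN2 line, at 1073 CPM. For S100A16 they were SFN, the epithelial 14-3-3 sigma gene (0.26), IRF2BPL (0.31) and SEZ6L2 (0.43). For S100A4 they were ACACB, an acetyl-CoA carboxylase (0.15), ULK2 (0.34) and PLCD3 (0.35), and for S100A14 BEX2 (0.31), CYP19A1, the aromatase gene (0.36), and C21orf91 (0.36). S100A6 lay nearest to ATP6AP2 (0.13), S100A11 to YIPF5 (0.13), S100A10 to SLC35E4 (0.15), S100A2 to FBXL13 (0.30) and S100P to AL359636.2 (0.53). S100A8, with 29 UMIs, is not described this way. With 5 lines many genes share an order, so nearness is a description only.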

How the data were processed

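The submitters' processing notes name Cell Ranger ARC 2.0.0 and GRCh38 for the joint matrix of the authors, and no read was realigned here. The deposited values are whole-number counts: UMIs per gene and counts per peak, for each barcode and with no normalisation. Start and end positions are the other deposited values. Gene rows span annotated starts. Of the non-zero peak entries 83.5% were even, so peak intervals were computed on counts divided by 2. Nothing in the sources used here gives how peaks and cells were called, which annotation was used or whether counting used strand.

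Barcodes with at least 1000 UMIs, 500 genes and 1000 peak counts and at most 20% mitochondrial UMIs were kept (2804 of 3298). The 63 highest Scrublet scores (scanpy 1.11.5) were removed as doublets, 0.8% per 1000 barcodes. The automatic threshold marked only 1 (0.0357%). Each barcode was called to the line whose panel had the highest mean z-score, by a margin of 0.5, and 401 of 2741 were left uncalled. All 37 panel genes were found. UMIs and peak counts were summed per line and scaled to CPM. Sums have exact Poisson intervals and shares exact binomial (Clopper-Pearson) ones (scipy 1.17.1). A gene counts as measured from 20 UMIs and a peak from 100 counts, over all called barcodes. Scripts were tested on simulated data. TMM factors (edgeR 4.0.16) served only as an alternative scaling.

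Named genes are the members, list genes past 2-fold in a line (at most 3 per line by size) with others of a list given as ranges or background, and the 3 nearest genes per member. ANXA2, S100A7, S100A12 and S100B, the marker genes PTPRC and KRT6A and the reference genes LCN2, CD74, HLA-DRB1, GAPDH, ACTB and MALAT1 are outside that rule and were added after their values were seen. The members, panels and lists were chosen with earlier results of these data known. The panels include leading genes of clusters found earlier in these barcodes, so line calls and gene levels share 1 library. No test was possible with 1 library of each kind.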

Additional observations from a re-analysis of the deposited data

How the results depend on the processing

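No paired analysis was possible because there is 1 library of each kind and no test. Of 332 values of called genes under 16 alternatives or fewer, 330 kept their direction, and 317 of 317 did for called peaks. Both reversals came under 2% mitochondrial UMIs, an alternative added after seeing the data: S100A2 in the LCN2 line (-0.51 on the log2 scale, on 1 UMI) and S100A9 in the HCC827-like group (0.61). The cause was not tested. Calls of S100A2 in the DHRS2 line, S100A4 in the A549-like group and S100A9, S100A14 and S100A16 in the LCN2 line held under every alternative run at 2-fold. S100A14 was run under 15 alternatives and the other 4 genes under 16. Under 2% mitochondrial UMIs S100A14 had at most 1 UMI per line.

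Summed over lines, 12 higher gene calls became 7 under 2% mitochondrial UMIs, 7 against the mean of the other lines and 3 at 4-fold. The 9 lower gene calls became 4 under 2%, 1 with a pseudocount of 10 CPM, 18 at 1.5-fold and 1 at 4-fold. In the LCN2 line, 6 higher became 3 with RNA clusters, 2 under 2% and 2 at 4-fold. In the DHRS2 line, 3 higher became 1 against the mean, 6 at 1.5-fold and 0 at 4-fold. The 10 higher peak calls became 6 at 2% to 20% mitochondrial UMIs, 1 with a pseudocount of 10 CPM, 17 at 1.5-fold, 2 at 4-fold, 6 within 500 bases and 19 within 10 kb. The 10 lower peak calls became 0 with that pseudocount, 24 at 1.5-fold, 2 at 4-fold and 21 within 10 kb. With TMM scaling, the median log2 ratio shifted by -0.18 to 0.14 over all genes and by -0.19 to 0.25 over all peaks. Shares of barcodes move with the thinning depth by construction. S100A8 and, under 2% mitochondrial UMIs, S100A14 are limited by depth.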
